A study of Mus musculus with 8 samples.

Results

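The genes described here are 10 Wnt ligands, *Wnt3*, *Wnt4*, *Wnt5a*, *Wnt5b*, *Wnt6*, *Wnt7b*, *Wnt8a*, *Wnt9a*, *Wnt10b* and *Wnt11*, out of 21950 genes in the deposited read count table. They were taken by symbol, and all 10 had a row. They were picked with the difference between d6PGCLCs and E12.5 PGCs already known, so that their values are given as a description, with no p-value, and calls among them are only counted. The table holds 19 Wnt ligands in all, and the other 9 are described where they set the scale for the 10. RNA was sequenced from pools of sorted cells in 2 groups of 4 libraries each. The comparison sets germ cells made in culture beside those of the embryo. The d6PGCLCs are primordial germ cell-like cells made from 1 BVSC-iPSC line, which carries the Blimp1-Venus and Stella-ECFP reporter transgenes. Induced pluripotent cells were first turned into epiblast-like cells (EpiLCs), and PGCLCs were then induced in medium with BMP4, SCF, LIF and EGF. Cells positive for both reporters were sorted at day 8 of culture, which is 6 days after the EpiLC stage. The E12.5 PGCs are primordial germ cells of C57BL/6J female fetuses, sorted from gonads for SSEA1 and integrin β3. The gates that the labels give thus differed between the groups. The groups also differ in stage. The paper, from earlier transcriptional work, likens d6PGCLCs to PGCs that are still migrating, an earlier stage than E12.5. Culture and stage cannot be told apart in this comparison.

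Wnt ligands are secreted, lipid-modified glycoproteins that act over short distances. Porcupine attaches the lipid, Wntless carries the ligand to the cell surface, and the ligand binds a Frizzled receptor together with LRP5 or LRP6. In the canonical branch this stabilises β-catenin, which enters the nucleus and acts with TCF/LEF factors on target genes such as *Axin2*. Other ligands, *Wnt5a* above all, act mostly without β-catenin through receptors such as ROR2 and RYK. In the mouse embryo, *Wnt3* is required for the epiblast to become competent for germ cell fate, *Wnt4* is needed for development of the fetal ovary, and *Wnt5a* acting through ROR2 guides migrating PGCs. *Wnt7b* is best known from lung, kidney, placenta and brain vessels. In brain vessels its canonical signal uses the co-receptors RECK and ADGRA2.

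All 9 germ cell markers had more than 3 counts in both groups (summed 3652 to 4232 CPM in d6PGCLCs against 4268 to 4891 in E12.5 PGCs). By the edgeR quasi-likelihood test, 4 of the 9 were higher in d6PGCLCs, 3 were lower and 2 did not pass. CPM are counts scaled to the TMM-normalised library size. The late germ cell genes *Dazl* and *Ddx4* were much lower in d6PGCLCs, at 37.7 ± 23.2 against 1262 ± 241 CPM and 35.5 ± 6.60 against 760 ± 92.2 CPM (mean ± SD, n = 4). Libraries held 8054596 to 12024841 counted reads in d6PGCLCs and 7991437 to 11166023 in E12.5 PGCs. A few libraries stood apart. E12.5 PGC replicate 4, labelled as female, had 99 counts on Y-linked genes, and the other 7 libraries had 0. E12.5 PGC replicate 2 had 144 CPM of the heat shock gene *Hspa1a* and 26.0 CPM of the embryonic globin *Hbb-y*. *Hspa1a* was also higher in every E12.5 PGC library, at 20.3, 144, 15.95 and 4.42 CPM in replicates 1 to 4. In d6PGCLCs *Hspa1a* had 0.305 to 0.747 CPM. The part of this difference in the values below was not tested. The collagens *Col1a1* and *Col3a1* summed to 18.4 CPM in d6PGCLC replicate 4 and 7.02 CPM in replicate 2. Every difference below is therefore followed without each library in turn where that matters.

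The promoters of *Wnt4* and *Wnt6*, whose counts were lower in d6PGCLCs, and of *Wnt3*, which was at a like level in both groups, are shown as the RefSeq bases just upstream of a start in GRCm38.p6. Each run is 250 bases long and is read 5′ to 3′ on the strand of the gene, which is the plus strand for all of them. Capitals mark CG dinucleotides. *Wnt3* is at chr11:103773925-103774174, *Wnt4* at chr4:137277385-137277634 and *Wnt6* at chr1:74771642-74771891, the last lying within the annotated span of the gene.
Wnt3: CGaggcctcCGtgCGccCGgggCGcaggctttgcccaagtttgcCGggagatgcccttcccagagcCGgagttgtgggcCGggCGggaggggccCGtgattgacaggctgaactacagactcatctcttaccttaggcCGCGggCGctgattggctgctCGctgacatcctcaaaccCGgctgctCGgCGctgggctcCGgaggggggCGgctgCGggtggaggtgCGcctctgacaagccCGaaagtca
Wnt4: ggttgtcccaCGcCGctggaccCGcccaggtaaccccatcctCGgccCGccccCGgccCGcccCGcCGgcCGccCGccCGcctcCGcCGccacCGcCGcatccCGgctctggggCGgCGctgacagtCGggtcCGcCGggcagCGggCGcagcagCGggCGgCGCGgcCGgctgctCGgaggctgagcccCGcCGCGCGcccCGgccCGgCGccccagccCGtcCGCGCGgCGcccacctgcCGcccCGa
Wnt6: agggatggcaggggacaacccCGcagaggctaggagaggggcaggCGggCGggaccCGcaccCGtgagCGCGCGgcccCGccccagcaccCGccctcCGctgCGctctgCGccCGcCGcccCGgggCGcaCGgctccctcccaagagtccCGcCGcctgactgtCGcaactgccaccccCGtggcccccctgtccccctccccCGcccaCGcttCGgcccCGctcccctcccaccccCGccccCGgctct

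These promoters held 22 (*Wnt3*), 44 (*Wnt4*) and 28 (*Wnt6*) CG dinucleotides, against a median of 9 over 19954 promoters of the same length. The upper quartile of all promoters was 19. RefSeq entries were matched for 7 of the 10 ligands with 10 promoters, and 8 of those 10 had more CG dinucleotides than the median. The range ran from 4 to 48. The most CG-rich promoter was that of *Wnt9a*, and the poorest was 1 of the 3 promoters of *Wnt5b*. The letters CTTTGA, the core of the TCF/LEF motif, were searched on both strands and occurred in 2 of the 10, 1 promoter each of *Wnt5b* and *Wnt11*, against 13.1% of all promoters. TATAAA, searched in the same way, occurred in 1, of *Wnt11*, against 11.7% of all. *Wnt5a*, *Wnt7b* and *Wnt8a* were not among the entries used here. Letter matches are descriptions and not binding sites.

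*Wnt7b* was the dominant Wnt ligand transcript of d6PGCLCs and close to absent from E12.5 PGCs. The gene lies on chromosome 15 at chr15:85535437-85581821 (GRCm38, minus strand). RPKM, CPM divided by the deposited exonic length in kilobases, allow levels of different genes to be set side by side. *Wnt7b* had 16.1, 19.3, 21.0 and 19.6 RPKM in d6PGCLC replicates 1 to 4, from 444, 670, 892 and 571 counts. In E12.5 PGCs it had 0.283, 0.0895, 0.287 and 0.179 RPKM, from 8, 3, 11 and 7 counts. The lowest d6PGCLC library was thus far above the highest PGC library. The ratio of pooled counts, 2577 in d6PGCLCs and 29 in E12.5 PGCs, was 92.3 after scaling for library size (95% exact counting interval 64.1 to 138). The fitted log2 fold change was 6.49 (SE 0.28), and it ran from 6.25 to 6.70 when each library was left out in turn. Intervals and detection limits here cover counting error only, because reads carried no molecular identifiers.

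The level of *Wnt7b* was close to uniform among d6PGCLC pools but not as close as counting noise alone would give. Its coefficient of variation was 11% among the 4 d6PGCLC libraries, while counting alone would give 3.94%. Among E12.5 PGC libraries it was 45.1%, near the 37.1% that counting alone gives for so few reads. Among 7 markers of trophoblast and surface epithelium, tissues that include a source of *Wnt7b* in the placenta, 5 had more than 3 counts in each group. The markers summed to 13.7 to 37.0 CPM in d6PGCLCs and 16.8 to 23.7 in PGCs, but single genes differed, 1 being higher and 3 lower in d6PGCLCs. *Krt7*, an epithelial keratin, had 31.0, 24.2, 8.63 and 14.4 CPM in d6PGCLC replicates 1 to 4 and 1.12 to 2.49 CPM in E12.5 PGCs, without overlap. Its adjusted p was 1.03e-07 in the edgeR quasi-likelihood test. *Elf5*, a trophoblast factor, was at 0 to 1 count in d6PGCLCs, and *Gata3* was lower there, at 2.91 ± 0.775 against 6.69 ± 2.24 CPM (adjusted p = 0.00142). *Hand1*, a factor of trophoblast and mesoderm, was lower too, at 0.548 ± 0.284 against 8.26 ± 1.32 CPM (adjusted p = 4.60e-09). The part of such cells in the *Wnt7b* level was not tested.

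Placed among all genes of the table, the mean *Wnt7b* level was above that of 80.0% of genes in d6PGCLCs and above that of 42.9% in E12.5 PGCs.

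**Figure D1:**
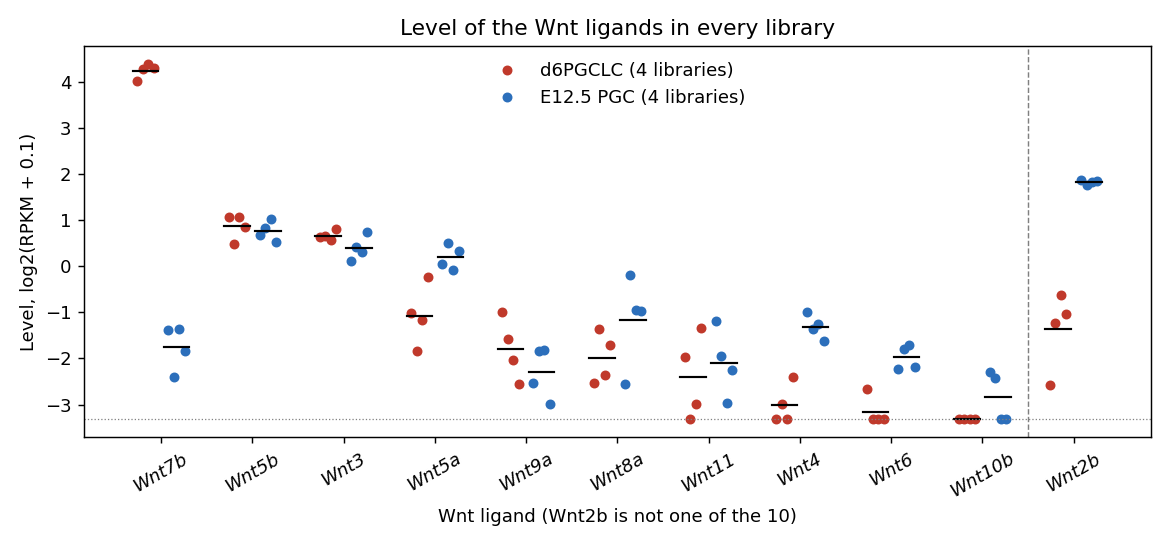
Level of each Wnt ligand as log2(RPKM + 0.1) on the vertical axis, with 1 point per library, d6PGCLCs in red and E12.5 PGCs in blue, and black bars for group means; the dotted line is 0 RPKM and *Wnt2b*, right of the dashed line, is not one of the 10. *Wnt7b* sits at 16.1 to 21.0 RPKM in d6PGCLCs and under 0.3 RPKM in E12.5 PGCs, while *Wnt5b* and *Wnt3* overlap between the groups.

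*Wnt3* and *Wnt5b* followed far below *Wnt7b* in d6PGCLCs and were at like levels in both groups. *Wnt3*, a canonical ligand, had 1.46, 1.47, 1.38 and 1.65 RPKM in d6PGCLCs and 0.979, 1.24, 1.14 and 1.58 RPKM in E12.5 PGCs. The groups overlapped, and the pooled count ratio was 1.18 (95% exact counting interval 0.95 to 1.46). *Wnt5b*, a close paralogue of *Wnt5a*, had 1.99, 1.31, 2.00 and 1.70 RPKM in d6PGCLCs and 1.5, 1.68, 1.94 and 1.33 RPKM in E12.5 PGCs. These ranges overlapped almost fully, with a ratio of 1.08 (95% exact counting interval 0.869 to 1.35). The counting intervals of both genes include equal levels. Reads numbered 38 to 55 for *Wnt3* and 33 to 62 for *Wnt5b* per d6PGCLC library.

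*Wnt5a*, *Wnt4* and *Wnt6* were lower in d6PGCLCs, without overlap between the groups. *Wnt5a*, the main noncanonical ligand (chr14:28504543-28527448), had 0.392, 0.179, 0.346 and 0.745 RPKM in d6PGCLCs and 0.932, 1.32, 0.85 and 1.15 RPKM in E12.5 PGCs. The gap between the groups was narrow, since d6PGCLC replicate 4 came close to the lowest PGC library. Pooled counts were 69 and 191, a ratio of 2.66 in favour of PGCs (95% exact counting interval 2.01 to 3.56). The fitted log2 fold change was -1.38 (SE 0.33), and it ran from -1.80 without d6PGCLC replicate 4 to -1.13 without d6PGCLC replicate 2. Replicate 4 also held the most *Col1a1* and *Col3a1* RNA, as given above, and the part of this in the *Wnt5a* level was not tested. In bulk pools, a smaller share of cells with a transcript and less transcript per cell cannot be told apart.

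*Wnt4*, the ovarian ligand (chr4:137277635-137299501, plus strand), was at the limit of detection in d6PGCLCs. It had 0, 1, 0 and 3 counts there and 13, 11, 14 and 10 counts in E12.5 PGCs, or 0.224 to 0.403 RPKM. The ratio of the pooled 48 counts to 4 was 11.6 (95% exact counting interval 4.23 to 44.1). *Wnt6* (chr1:74754342-74785322) had 1 count in 1 d6PGCLC library and 0 in the other 3, and 2, 4, 5 and 3 counts in E12.5 PGCs. Its ratio of 14 counts to 1 was 13.5, with a wide 95% exact counting interval of 2.05 to 570. Both ratios thus rest on very few reads in d6PGCLCs. The fitted log2 fold change of *Wnt4* went from -3.38 to -4.75 without d6PGCLC replicate 4, and that of *Wnt6* from -3.21 to -4.86 without d6PGCLC replicate 1, the libraries that held most or all of those reads.

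Markers of supporting cells of the ovary, which surround the PGCs in the gonad, were low in both groups and higher in E12.5 PGCs. Of 8 markers analysed, 7 had more than 3 counts in a PGC library and 2 in a d6PGCLC library. They summed to 11.9 to 20.8 CPM in E12.5 PGCs and 2.66 to 8.42 CPM in d6PGCLCs, most of it from *Irx3*, and 5 of the 8 were lower in d6PGCLCs by the test. *Runx1* was at 0 to 2 counts in every PGC library, and *Emx2* and *Runx1* were at 0 in all d6PGCLC libraries. *Foxl2* was not analysed here. Of 7 interstitial and mesonephric markers, 6 and 5 were detected, with sums of 203 to 299 CPM in E12.5 PGCs and 94.5 to 141 CPM in d6PGCLCs, most of it from *Gata2*. By the edgeR quasi-likelihood test 3 of the 7 were lower in d6PGCLCs and 1, *Col1a1*, was higher (log2 fold change 4.24, adjusted p = 0.000719). The groups overlapped for *Col1a1*, and its log2 fold change ran from 2.91 to 4.8 when each library was left out in turn. *Pdgfra*, *Nr2f2* and *Tcf21* had means of 0.404 CPM or less in both groups. *Pax8* had 0.516 CPM in d6PGCLCs against 4.97 in E12.5 PGCs. The part of these cells in the *Wnt4*, *Wnt5a* and *Wnt6* values was not tested.

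The remaining 4 ligands were near the limit of detection, and their groups overlapped. *Wnt8a* had 1, 5, 2 and 3 counts in d6PGCLCs and 1, 13, 8 and 8 in E12.5 PGCs, a ratio of 2.63 in favour of PGCs (95% exact counting interval 1.28 to 5.81). *Wnt9a* had 11, 8, 6 and 2 counts in d6PGCLCs and 2, 6, 7 and 1 in E12.5 PGCs, a ratio of 1.75 in favour of d6PGCLCs (0.911 to 3.48). *Wnt11* had 4, 0, 1 and 8 counts and 9, 5, 1 and 4 counts, in the same order. Its ratio of d6PGCLCs to E12.5 PGCs was 0.711 (0.323 to 1.52), and its log2 fold change of -0.46 turned to 0.15 without E12.5 PGC replicate 1 and became -1.46 without d6PGCLC replicate 4. *Wnt10b* had 0 counts in every d6PGCLC library and 2, 2, 0 and 0 in E12.5 PGCs, so no fold is given. The interval of *Wnt8a* covers counting error alone, and its PGC libraries varied more than counting gives (68.8% against 36.5%). A difference in *Wnt8a*, *Wnt9a*, *Wnt10b* or *Wnt11* was thus not detectable beyond the spread of the libraries at this depth.

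In numbers, 9 of the 10 ligands had more than 3 counts in at least 1 library and 3 had more than 3 in every library. Groups did not overlap for 4 of the 10, against 30.2% of all genes, and the same 4 stood at an adjusted p of at most 0.05 (edgeR quasi-likelihood test), against 31.5% of all genes. With the study's added threshold of a 4-fold change, 3 of them stayed, against 6.62% of all genes. Since the ligands were chosen on this contrast, nothing is read from these shares. *Wnt6* left both counts in some fits. Its call was lost with a replicate block, or without d6PGCLC replicate 2, d6PGCLC replicate 3 or E12.5 PGC replicate 3. Its log2 fold change was -1.26 with a prior count of 2. Either filter on low counts removed *Wnt6*, and that of edgeR (filterByExpr) also removed *Wnt4*. Set to their bounds, the log2 fold changes of *Wnt4* and *Wnt6* were -1.93 and -0.11, both short of a 4-fold change. *Wnt7b* was the higher one and *Wnt4*, *Wnt5a* and *Wnt6* the lower ones. The median log2 fold change was -0.90 over the 10 and -0.05 with genes at the detection limit set to their bound, and 0 over all genes.

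**Figure D2:**
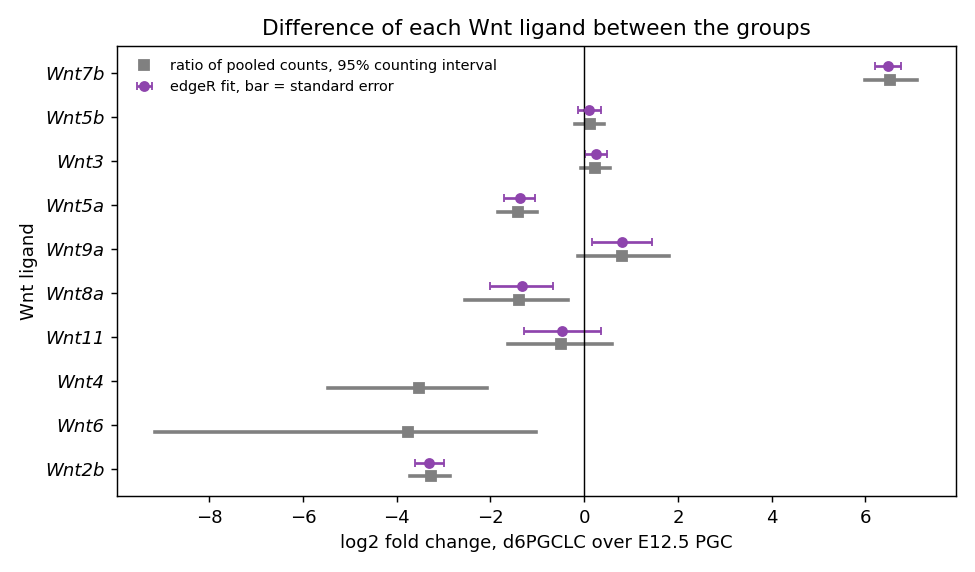
Difference of each ligand on the horizontal axis as log2 fold change, d6PGCLC over E12.5 PGC. Purple points are the edgeR fit with its standard error, left out for *Wnt4* and *Wnt6*, which were at the detection limit in d6PGCLCs, and grey squares are ratios of pooled counts with 95% counting intervals. *Wnt7b* lies farthest right at 6.49, *Wnt5b* and *Wnt3* lie near 0 at 0.11 and 0.26, and *Wnt2b*, not one of the 10, lies at -3.30.

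Seen as a family, each group had 1 leading ligand, and the leading ligands differed. Summed over all 19 ligands, d6PGCLCs had 23.7 ± 2.12 RPKM and E12.5 PGCs 8.90 ± 0.442 RPKM (SD, n = 4). *Wnt7b* made up 80.2% ± 2.96 of that sum in d6PGCLCs, from 77.0% to 83.4% by library, and 2.39% ± 1.13 in E12.5 PGCs. Without *Wnt7b* the order of the sums turned: 3.86 to 5.37 RPKM in d6PGCLCs and 8.20 to 9.43 RPKM in E12.5 PGCs. The leading ligand of E12.5 PGCs was *Wnt2b*, a canonical ligand outside the 10, with 38.9% ± 3.04 of the sum and 3.57, 3.32, 3.45 and 3.49 RPKM in the 4 libraries. In d6PGCLCs it had 0.0677, 0.324, 0.550 and 0.386 RPKM, below every PGC library. The supporting cell sums, mostly *Irx3*, and the interstitial and mesonephric sums, mostly *Gata2*, were also lower in d6PGCLCs, as given above. The part of such cells in the *Wnt2b* level was not tested. Shares within a library must sum to the whole, so that a high *Wnt7b* share lowers all others. Accordingly *Wnt5b* made up 7.44% and 18.1% and *Wnt3* 6.33% and 13.9% of the sums of d6PGCLCs and E12.5 PGCs, at like levels in RPKM.

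**Figure D3:**
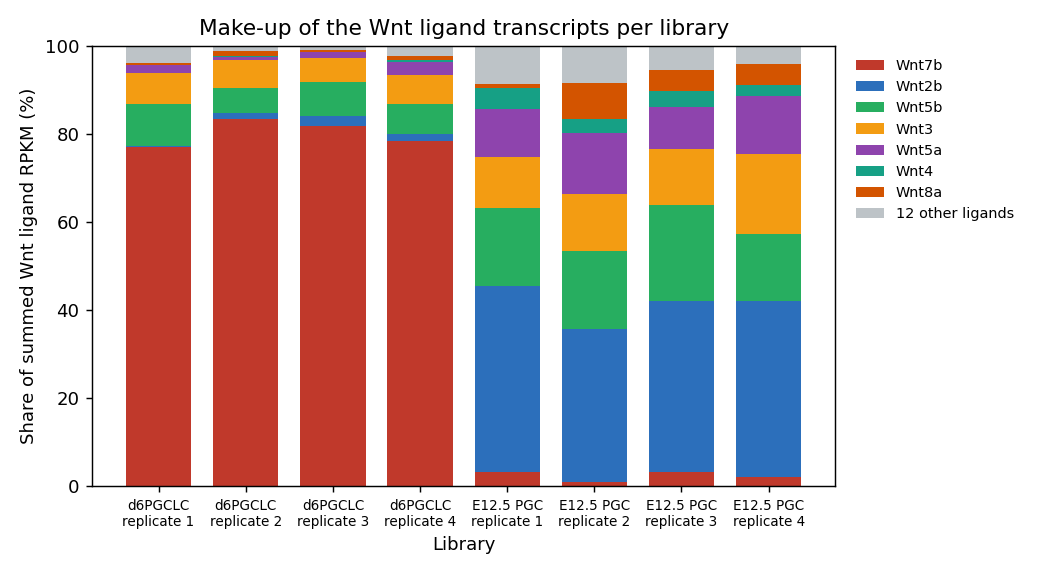
Share of each ligand in the summed Wnt ligand RPKM of a library, in percent, with 1 stacked bar per library. *Wnt7b* fills 77.0% to 83.4% of the d6PGCLC bars, and *Wnt2b* takes the largest part of every E12.5 PGC bar, 34.9% to 42.1%.

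The order of levels in d6PGCLCs was *Wnt7b* (19.0 ± 2.08 RPKM, SD, n = 4), *Wnt5b* (1.75 ± 0.326), *Wnt3* (1.49 ± 0.113) and *Wnt5a* (0.416 ± 0.238). The library ranges of *Wnt5b* and *Wnt3* overlapped, and those of the other neighbours did not. From *Wnt5a* downward, through *Wnt2b* (0.332), *Wnt9a* (0.213), *Wnt8a* (0.166) and *Wnt11* (0.118), neighbouring ranges overlapped and the order was not resolved. In E12.5 PGCs, *Wnt2b* (3.46 ± 0.106 RPKM) stood apart from *Wnt5b* (1.61 ± 0.257), *Wnt3* (1.23 ± 0.254) and *Wnt5a* (1.06 ± 0.212). Among these 3, neighbouring ranges overlapped, while those of *Wnt5b* and *Wnt5a* did not. *Wnt8a* (0.420 ± 0.289), *Wnt4* (0.309 ± 0.0744), *Wnt7b* (0.210 ± 0.0945), *Wnt11* (0.159), *Wnt6* (0.157) and *Wnt9a* (0.116) followed, with neighbouring ranges overlapping. *Wnt7b* was thus first in d6PGCLCs and one of these unresolved low ligands in E12.5 PGCs. Levels rest on the deposited exonic length, which was 65.0% of the longest GENCODE M21 transcript for *Wnt5a* and 89.6% to 108% for the other 9, so that reads on the rest of the *Wnt5a* transcript were not counted.

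Of the 9 ligands outside the 10, 7 had at most 3 counts in every library. Among these were *Wnt9b*, *Wnt10a*, *Wnt3a* and *Wnt1*, which are the chromosomal neighbours of *Wnt3*, *Wnt6*, *Wnt9a* and *Wnt10b*. *Wnt10a* lies 6.70 kb from *Wnt6*, *Wnt1* 11.7 kb from *Wnt10b* and *Wnt3a* 16.1 kb from *Wnt9a*, and the annotated span of *Wnt9b* overlaps that of *Wnt3*. *Wnt3* was thus the one ligand of these pairs with at least 26 counts in every library, beside a *Wnt9b* gene at the detection limit. The nearest genes of the table on either side of *Wnt7b*, *7530416G11Rik* at 32.2 kb and *Mirlet7b* at 125.5 kb, had 0 and 0.0207 mean CPM in d6PGCLCs. The sources used here do not say whether reads were counted by strand. GENCODE exons on the opposite strand overlap *Wnt7b* (AU022754), *Wnt5a* (Gm2670) and *Wnt11* (Gm8398), and reads of those partners, which were not analysed here, cannot be told apart if strand was not used.

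The 5 genes with the pattern most like *Wnt7b* over the 8 libraries were *Bcl3*, *Pros1*, *Vwa5a*, *Tinagl1* and *Ndrg2*. Likeness was the Euclidean distance of log2(RPKM + 0.1), which was 2.10 for *Bcl3* and 2.90 to 3.09 for the other 4, against a median of 14 over 21931 genes. *Bcl3* had 16.1 ± 5.86 RPKM in d6PGCLCs and 0.248 ± 0.111 RPKM in E12.5 PGCs (SD, n = 4), and *Tinagl1* had 11.2 ± 1.33 and 0.287 ± 0.225 RPKM. These lie on chromosomes 7, 16, 9, 4 and 14, and none on chromosome 15 with *Wnt7b*.

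The genes through which a Wnt ligand leaves a cell and is received were then tested in the same fit, as 91 genes in 9 lists without any ligand. Of these, 84 had more than 3 counts in some library, against 14216 of all 21950 genes. The shares of all genes below thus include a larger part of genes with hardly any reads. In d6PGCLCs 15 were higher and 36 lower (16.5% and 39.6%), against 16.1% and 15.4% of all genes, and 40 did not pass. The lists were drawn up with earlier results of these data known, so that these shares are given as a description. With the study's added threshold of a 4-fold change, 3 were higher and 13 lower, against 3.24% and 3.37% of all genes. The 13 became 7 with a prior count of 2 and 9 under either filter on low counts. The median log2 fold change of the 91 was -0.44, or -0.25 with genes at the detection limit set to their bound. Adjusted p-values below are from the edgeR quasi-likelihood test over all genes, with values as mean ± SD of 4 libraries. Levels in CPM are compared only within a gene.

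Among 7 genes of ligand secretion and handling, 1 was higher, 2 were lower and 4 did not pass. Of the 2 lower ones, *Trabd2b*, a protease that cleaves Wnts, was at 3 counts or fewer in d6PGCLCs, and its call (adjusted p = 0.0305) was lost in 5 of the 8 fits that left out a library (adjusted p up to 0.116). *Porcn*, the acyltransferase that lipidates every Wnt, had 361 ± 68.4 CPM in d6PGCLCs against 322 ± 30.8 in E12.5 PGCs (adjusted p = 0.339). *Wls*, the carrier of lipidated Wnts, had only 0 to 7 counts per library over all 8 libraries, or 0 to 0.606 CPM in d6PGCLCs against 0.277 to 0.632 in E12.5 PGCs (adjusted p = 0.441). The transcript of the ligand was thus abundant in d6PGCLCs while that of its carrier was near the detection limit in both groups. *Notum*, a secreted esterase that strips the lipid from Wnts, was lower by 1.32 on the log2 scale. It had 17.7 ± 9.40 CPM in d6PGCLCs against 44.7 ± 3.71 in E12.5 PGCs (adjusted p = 0.000225). *Gpc3*, a glypican that binds Wnts at the cell surface, was higher, at 75.8 ± 9.30 against 31.8 ± 2.51 CPM (adjusted p = 2.79e-08).

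Co-receptors differed in 1 direction, with 4 of 8 higher, 0 lower and 4 that did not pass. *Reck*, the Wnt7 co-receptor, had 9.43 ± 1.65 CPM in d6PGCLCs against 4.05 ± 0.900 in E12.5 PGCs, a log2 fold change of 1.23 (SE 0.22, adjusted p = 0.000135). Its partner *Adgra2* was at 1.03 CPM in both groups (adjusted p = 1), measured over a deposited length of 1191 bases where the longest GENCODE transcript has 5760. Exons of *Brf2* overlap it on the opposite strand. *Ror2*, the receptor of Wnt5a, was higher at 186.5 ± 3.58 against 100.8 ± 2.51 CPM (log2 fold change 0.89, adjusted p = 3.58e-08), while *Wnt5a* itself was lower. *Ryk*, another receptor of noncanonical ligands, was higher by 0.53 (adjusted p = 9.07e-05). *Lrp5* was higher by 0.71 on the log2 scale (adjusted p = 3.24e-06) and *Lrp6* did not pass (log2 fold change -0.13, adjusted p = 0.450).

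Frizzled receptors moved in both directions, 2 of 10 higher and 4 lower. *Fzd3*, a receptor of planar cell polarity signalling, had 16.6 ± 1.90 CPM in d6PGCLCs against 74.6 ± 7.66 in E12.5 PGCs (log2 fold change -2.17, adjusted p = 2.14e-11). *Fzd2* was lower by a like amount (-2.21, adjusted p = 3.56e-07) and *Fzd1* by less (-1.19, adjusted p = 0.00340). *Fzd6* and *Fzd9* were higher, with log2 fold changes of 1.06 and 0.98 (adjusted p = 0.000114 and 0.000268). *Fzd7*, a receptor of canonical ligands, was lower at 149 ± 34.5 against 214 ± 11.2 CPM (adjusted p = 0.00162).

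Secreted antagonists that passed the test were all lower. Of 14 antagonists, 0 were higher, 5 lower and 9 did not pass, 5 of the 14 being at 3 counts or fewer in every library. *Sfrp1*, which binds Wnts outside the cell, was lower by 2.18 on the log2 scale. It had 8.45 ± 3.38 CPM in d6PGCLCs against 38.3 ± 1.88 in E12.5 PGCs (adjusted p = 1.66e-08). *Sfrp2* was lower by 2.34 (adjusted p = 7.17e-06) and *Dkk1*, which blocks LRP5 and LRP6, by 2.26 (adjusted p = 0.000639). The supporting cell sums, mostly *Irx3*, and the interstitial and mesonephric sums, mostly *Gata2*, were lower in d6PGCLCs too, as given above. The part of such cells in the levels of these antagonists, and of *Rspo3* below, was not tested. Of 9 R-spondins and their receptors, 2 were higher and 4 lower. *Rspo3*, which boosts Wnt signals, had a log2 fold change of -1.99 (adjusted p = 0.00139), and *Znrf3*, a ligase that removes Frizzleds, one of -0.80 (adjusted p = 8.22e-06). *Lgr4*, a receptor of R-spondins, was higher by 0.29 (adjusted p = 0.0207), a call lost without d6PGCLC replicate 3, d6PGCLC replicate 4 or E12.5 PGC replicate 3 (adjusted p = 0.0809, 0.0837 and 0.0748).

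Inside the cell, most transducers differed little. Of 11, 2 were higher, 3 lower and 6 did not pass. *Ctnnb1*, which encodes β-catenin, had 1240 ± 59.9 CPM in d6PGCLCs against 1319 ± 122 in E12.5 PGCs (adjusted p = 0.542). *Ctnnbip1*, an inhibitor of the contact between β-catenin and TCF factors, was lower by the most (-0.90, adjusted p = 6.20e-05), followed by *Dvl1* (-0.46) and *Axin1* (-0.39). *Csnk1a1* (0.40) and *Dvl2* (0.31) were higher. Of 12 TCF factors and nuclear partners, 1 was higher and 5 lower. The higher one, *Tle3*, a corepressor of TCF factors, had 137 ± 27.6 CPM in d6PGCLCs against 17.9 ± 3.44 in E12.5 PGCs (log2 fold change 2.94, SE 0.15, adjusted p = 4.27e-12). *Tcf7l1*, a TCF that mainly represses, was lower (-2.23, adjusted p = 1.87e-10), as were *Pygo1* (-1.37, adjusted p = 7.07e-05) and *Tcf7* (-0.82, adjusted p = 0.000121). *Lef1* did not pass, at 191 ± 30.2 against 193 ± 5.55 CPM (adjusted p = 1).

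**Figure D4:**
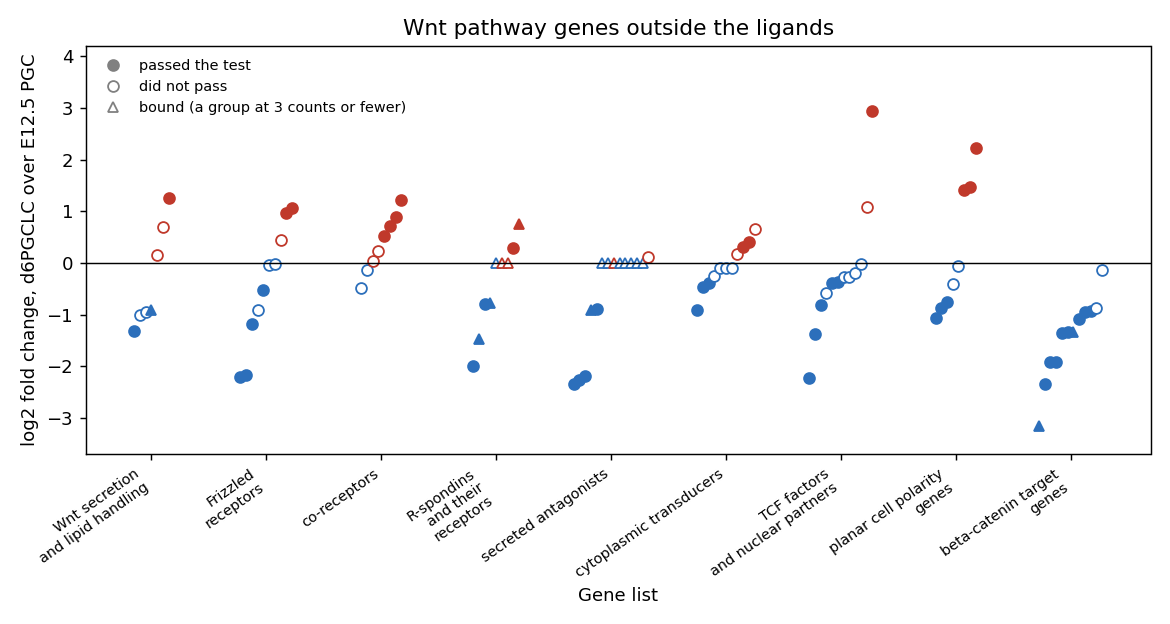
Log2 fold change, d6PGCLC over E12.5 PGC, of the 91 pathway genes on the vertical axis by list. Red marks higher and blue lower fitted values, filled symbols passed the test, and triangles are bounds for genes with 3 counts or fewer in every library of a group, drawn at 0 where no fold can be bounded. The co-receptors that passed all lie above 0 and the β-catenin targets that passed all lie below.

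Most genes listed here as activated by β-catenin were lower in d6PGCLCs, the group with the high *Wnt7b* level. This list too was drawn up with earlier results of these data known, so that its count is a description. Of the 12 listed targets, 10 were lower, 0 higher and 2, *Sp8* and *Myc*, did not pass. Genes placed in other lists, such as *Rnf43*, *Lef1*, *Notum* and *Znrf3*, were not counted as targets. The median log2 fold change of the 12 was -1.35 (-1.33 with bounds) against 0 over all genes. *Axin2*, a feedback inhibitor and the most general target, had 50.2, 37.6, 64.9 and 57.5 CPM in d6PGCLCs and 153, 114, 138 and 133 CPM in E12.5 PGCs. The groups were well apart (log2 fold change -1.36, SE 0.13, adjusted p = 6.38e-08). *Sp5* had 0 to 3 counts per d6PGCLC library and 2.90 ± 1.12 CPM in E12.5 PGCs (adjusted p = 3.94e-06). *Tnfrsf19* was lower by 2.33 on the log2 scale (adjusted p = 6.67e-09) and *Nkd1* by 1.91 (adjusted p = 1.45e-06). *Ccnd1*, a cyclin with many other inputs, had 0.894 to 16.2 CPM among d6PGCLC libraries and passed the main test (-1.92, adjusted p = 0.00236), but not DESeq2 (adjusted p = 0.0587). Its log2 fold change was -2.74 without d6PGCLC replicate 4, the library with the highest value of its group. *Nkd2*, another of the 10, had a log2 fold change of -1.08 (adjusted p = 0.0320), and its call was lost without any 1 of d6PGCLC replicates 3 and 4 and E12.5 PGC replicates 1, 3 and 4 (adjusted p = 0.0603 to 0.123). The supporting cell sums, mostly *Irx3*, were also lower in d6PGCLCs, at 2.66 to 8.42 CPM against 11.9 to 20.8 CPM in PGCs. So were the interstitial and mesonephric sums given above, mostly *Gata2*. The part of such cells in the target levels was not tested. GENCODE exons on the opposite strand overlap *Axin2* (Gm11670), with the same limit as for the ligands.

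**Figure D5:**
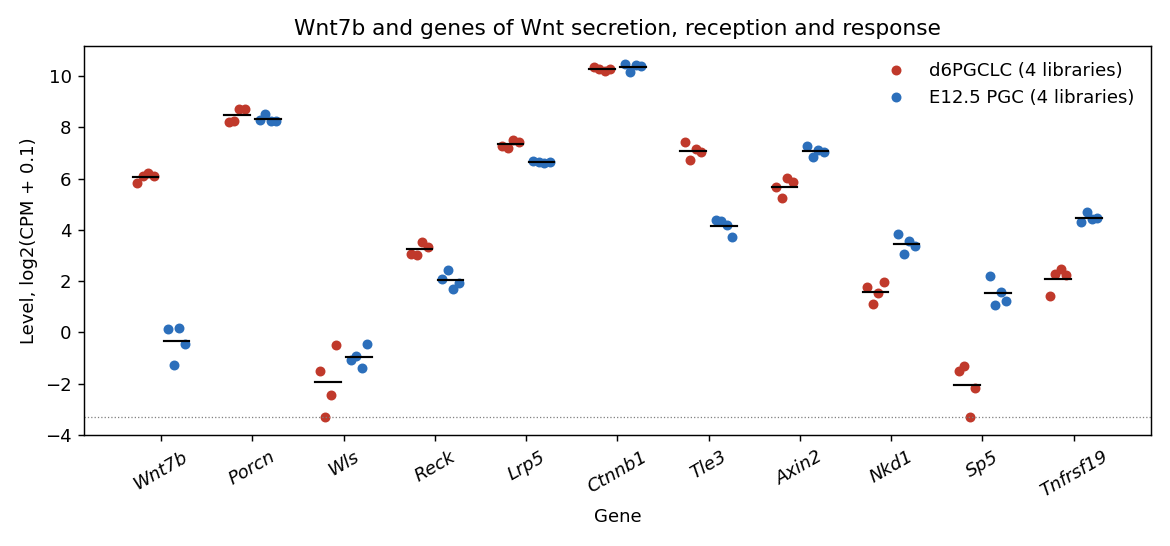
Level of *Wnt7b* and of genes of Wnt secretion, reception and response as log2(CPM + 0.1) on the vertical axis, with 1 point per library, d6PGCLCs in red and E12.5 PGCs in blue, black bars for group means and a dotted line at 0 CPM. *Wnt7b*, *Reck*, *Lrp5* and *Tle3* were higher and *Axin2*, *Nkd1*, *Sp5* and *Tnfrsf19* lower in d6PGCLCs, and *Porcn*, *Wls* and *Ctnnb1* overlapped between the groups.

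The planar cell polarity genes, which serve a noncanonical branch, were split, with 3 of 8 higher, 3 lower and 2 that did not pass. *Celsr3* was higher at 14.8 ± 4.99 against 3.2 ± 1.09 CPM (log2 fold change 2.22, adjusted p = 1.06e-06), as were *Vangl1* (1.47, adjusted p = 6.18e-09) and *Prickle2* (1.41, adjusted p = 0.00549). Paralogues of *Celsr3* and *Prickle2* were lower, namely *Celsr1* (-1.06, adjusted p = 0.00212), *Prickle1* (-0.86, adjusted p = 3.68e-07) and *Celsr2* (-0.75, adjusted p = 7.66e-05). The tested genes are paralogues and partners and do not vary independently, so that counts over a list are descriptions.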

How the data were processed

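RNA-seq reads (TruSeq Stranded mRNA, single-end) of 8 libraries had been aligned by the authors with STAR to GRCm38. The deposited values are raw counts, not normalised, of reads with a single position on the exons of 1 isoform per gene. The authors had picked that isoform at random, and its exonic length is in the same table. Reads from near-identical copies are therefore missing, and reads on other exons too. Whether strand was used in counting is not given in the sources used here. All 21950 genes and 8 libraries were used (7991437 to 12024841 counts each, a gene being at the detection limit in a group whose libraries held no more than 3 counts each).

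Symbols came from RefSeq (GRCm38.p6), which matched 21907 identifiers and left 43 without. In R 4.3.3, counts were fitted with edgeR 4.0.16 (TMM, glmQLFit, glmQLFTest, cell type only, prior count 0.125, no filter on low counts) with Benjamini-Hochberg adjustment over all genes. CPM used TMM-scaled library sizes, and RPKM divided these by the deposited length. Pooled ratios carry exact binomial intervals at 95%. The script was tested on simulated data. DESeq2 1.42.0, the edgeR likelihood ratio test, other scalings, filters on low counts, a prior count of 2, a replicate block and leaving out each library were the alternatives.

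The 10 ligands and all gene lists were chosen with earlier results of these data known. From each pathway list, up to 3 passing genes per direction with the largest fold change and a mean of at least 1 CPM were named, besides *Porcn*, *Wls*, *Reck*, *Adgra2*, *Ror2*, *Lrp5*, *Lrp6*, *Ctnnb1*, *Axin2* and *Lef1*. *Ryk*, *Fzd7*, *Trabd2b*, *Rnf43*, *Nkd1*, *Nkd2*, *Krt7*, *Elf5*, *Gata3*, *Hand1*, *Col1a1*, *Pdgfra*, *Nr2f2*, *Tcf21*, *Pax8*, *Dazl*, *Ddx4*, *Sp8*, *Myc*, *Nsf* and *Cdc42* were added after their values were seen. Pools came from independent experiments, and within groups all pairs of libraries differed by more than counting noise (a chi-square over its degrees of freedom of 3.19 to 20.8). Promoter bases were read from RefSeq entries and motifs counted on both strands.

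Markers of other tissues were summed per library, given as CPM in d6PGCLCs and then in E12.5 PGCs. Endothelium (5 genes) had 27.6 to 40.7 and 19.0 to 33.7 CPM, and red blood cells (3 genes) 0 to 0.485 and 0 to 32.8 CPM. EpiLCs (4 genes) had 20.0 to 34.8 and 20.1 to 24.5 CPM, and mesoderm (6 genes) 98.4 to 113 and 93.8 to 103 CPM. Trophoblast and surface epithelium (7 genes) had 13.7 to 37.0 and 16.8 to 23.7 CPM, and endoderm (4 genes) 0.996 to 1.82 and 3.41 to 5.16 CPM. Single genes differed within these sums. By the edgeR quasi-likelihood test, 1 EpiLC marker was higher in d6PGCLCs and 2 lower, and 2 mesoderm markers were higher and 3 lower. Of endothelium 1 was higher and 0 lower, and of red blood cells and endoderm 0 were higher and 2 lower each.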

Additional observations from a re-analysis of the deposited data

How the results depend on the processing

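The direction of the *Wnt7b* difference held under every alternative run, with log2 fold changes from 6.16 (prior count of 2) to 6.70. Its share of the summed ligand RPKM in E12.5 PGCs went from 2.39% to 4.06% with the 10 ligands alone as the sum, and ranged from 2.08% to 2.87% when a library was left out. Pathway genes at least 4-fold lower numbered 7 with a prior count of 2 and 9 under either filter on low counts, against 13, and 12 to 16 when a library was left out. The fitted folds of *Wnt4* and *Wnt6*, at the detection limit in d6PGCLCs, became -2.19 and -1.26 with a prior count of 2, which pulls low counts together. Values close to 0 changed sign: *Adgra2* had a log2 fold change of -0.0087 with upper quartile scaling and ran from -0.13 to 0.37 when a library was left out, and *Lef1* ran from -0.111 to 0.0574. The cause was not tested. Over genes with a mean above 1 CPM, no scaling shifted the log2 fold changes by a median of over 0.1.

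Whether the same replicate number pairs libraries was not settled. Deviations from the group means correlated by 0.302, 0.114, -0.0382 and 0.0411 for the numbers 1 to 4. Libraries of unlike numbers correlated by -0.199 to 0.143, and only number 1 lay above that range. With a replicate block, 15 pathway genes were higher and 38 lower, against 15 and 36, the *Wnt7b* log2 fold change was 6.50, and *Wnt6* and *Trabd2b* were no longer called. *Wnt6*, *Wnt8a*, *Wnt9a*, *Wnt10b* and *Wnt11* had at most 13 counts in any library, which limits their precision, and *Wnt8a* in PGCs, *Wnt9a* in d6PGCLCs and *Wnt11* in both groups also varied more than counting gives.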

Other observations

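The ligands differed in how much they varied among pools of 1 group. *Wnt2b* in E12.5 PGCs and *Wnt3* in d6PGCLCs varied no more than counting alone gives (coefficients of variation 3.06% and 7.56%, against 8.82% and 14.7%). *Wnt5a* in d6PGCLCs varied more, at 57.3% against 24.1%, and *Wnt11* in d6PGCLCs at 114% against 55.5%. d6PGCLC replicate 4 had the highest *Wnt5a*, *Wnt11* and *Wnt4* values of its group and the lowest *Wnt9a* value. The part of the other differences of that library in these values was not tested.

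Genes beside the ligands did not share 1 pattern. *Nsf*, 3.76 kb beyond *Wnt3*, had 14.2 ± 1.81 CPM in d6PGCLCs against 5.90 ± 0.792 in E12.5 PGCs (mean ± SD of 4 libraries), with an adjusted p of 8.87e-06 in the edgeR quasi-likelihood test, while *Wnt3* overlapped between the groups. *Cdc42*, 20.2 kb beyond *Wnt4*, was at 415 ± 37.0 and 390 ± 16.2 CPM (adjusted p = 0.542).

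For the 19 sets of 4 libraries (ligand and group) with more than 3 counts in a library, a single outlying library was looked for with Dixon's test at the 95% level, and 0 met it, where chance alone gives about 0.95.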
